A study of Mus musculus with 8 samples.

Results

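Polyamine synthesis and breakdown was described here through 10 genes of the mouse, chosen by name: the biosynthetic enzymes Odc1, Amd1, Srm and Sms, the catabolic enzymes Sat1, Smox and Aoc1, and the regulators Azin1, Oaz1 and Oaz2. A gene was taken as measured where the platform's gene table gave it a probe set with 1 gene symbol, which held for 7 of the 10 members, out of 19938 genes with such a probe set. For Sms and Oaz1 every probe set found also listed a second gene, and Amd1 had no probe set listed, so no value is given for these 3 genes. The tissue was the uterus of C57BL/6 mice, an inbred laboratory strain, collected on day 3 at 22 h with the night of mating counted as day 0, shortly before the embryo attaches. All females were young virgins before mating and were assigned to the groups at random. The pregnant group comprised 4 uteri after mating with stud males, from which blastocysts were flushed and which showed no blue dye reaction, the sign of attachment. The pseudopregnant group comprised 4 uteri after mating with vasectomised males, a state that follows the hormonal course of early pregnancy without an embryo. No transgene or drug is named for either group, and the samples had been selected for RNA quality (RNA integrity number 6.9 to 8.7). The kind of male, and the dye test and flushing, which are described for the pregnant group alone, go together with the presence of embryos, so effects of these cannot be told apart.

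Putrescine, spermidine and spermine are small cations that bind nucleic acids and are needed for growth and translation. Ornithine decarboxylase, encoded by Odc1, makes putrescine and is the regulated entry step; aminopropyl groups supplied by S-adenosylmethionine decarboxylase (Amd1) are then added by spermidine synthase (Srm) and spermine synthase (Sms). Antizymes bind ornithine decarboxylase and send it to the proteasome, and the antizyme inhibitor Azin1 relieves that block. In rodents uterine ornithine decarboxylase activity is known to rise around implantation and decidualization.

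Each uterus was hybridised to its own array, and the values are probe set intensities normalised by the authors with RMA, given here as log2. The 8 arrays had median intensities of 55.2 to 56.3, and arrays of a group correlated at 0.984 to 0.994. With 4 arrays to a group, their number sets how precise each value can be. The pregnant replicate 2 array stood apart on the largest axis of variation (-26.7, against -6.6 to -4.9 for the other pregnant arrays and 6.8 to 20.3 for the pseudopregnant arrays), so each measured member is also given without it. Markers of uterine tissue were present: all 6 smooth muscle markers and all 6 stromal fibroblast markers passed the intensity filter on these arrays. RNA of whole uterus was measured, so fewer cells of a type and less RNA per cell cannot be told apart.

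The groups were compared to see how polyamine genes differ where embryos are present but not yet attached. Odc1 and Srm were higher in every pregnant uterus than in any pseudopregnant uterus, 1.30-fold and 1.24-fold on average. The spermine oxidase gene Smox and the antizyme gene Oaz2 were lower on average in the pregnant group, and Azin1 and Sat1 were higher on average. None of these differences passed the test across all probe sets. Of the 6 members that passed the intensity filter, 0 had a limma adjusted p under 0.05, where 1.82% of the 17494 probe sets tested did (1.41% higher and 0.412% lower in the pregnant group). An unadjusted p under 0.05 was found for 5 of the 6 (all but Sat1) and for 23.7% of all probe sets. The groups did not overlap for 3 of the 6, Odc1 and Srm on the higher and Oaz2 on the lower side, against 14.6% of all probe sets tested (9.23% higher and 5.38% lower). Aoc1 did not pass the filter and was described separately.

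**Figure D1:**
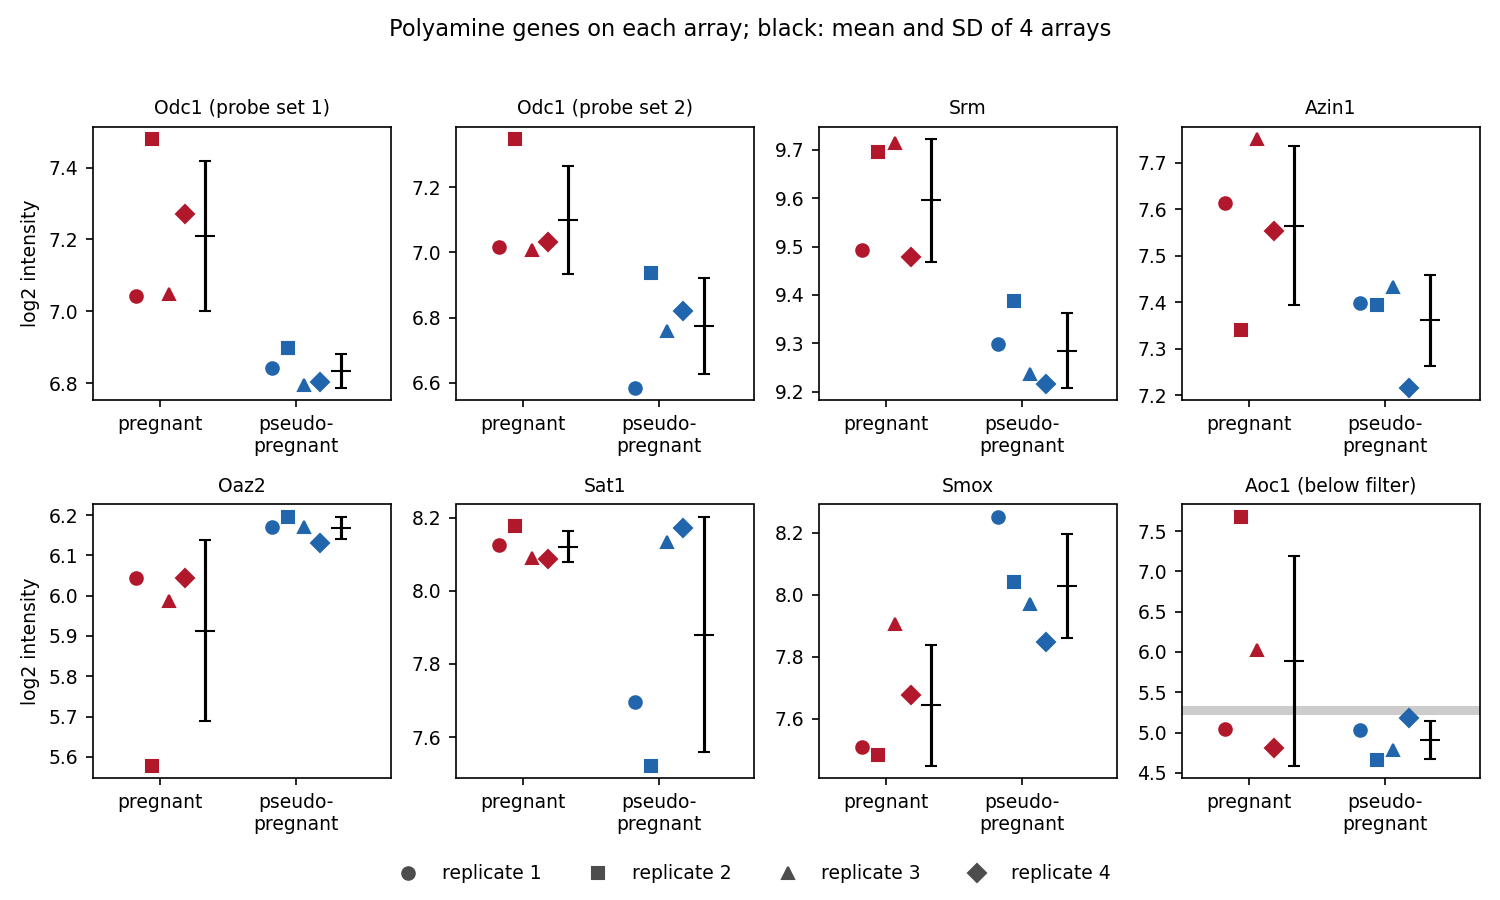
Log2 intensity (vertical axes, which differ in range between panels) of the 7 measured polyamine genes on the 4 pregnant (red) and 4 pseudopregnant (blue) arrays, with both probe sets of Odc1; marker shape gives the replicate number, and black bars give the mean and SD of 4 arrays. The groups are separate for both Odc1 probe sets, Srm and Oaz2. The grey band in the Aoc1 panel spans the 40th percentiles of the 8 arrays, 5.23 to 5.32, and 6 of 8 Aoc1 values lie below it.

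Odc1 was read by 2 probe sets (10582295 and 10394770) that list the same transcripts. On the brighter of them, the log2 intensities in pregnant replicates 1 to 4 were 7.04, 7.48, 7.05 and 7.27, against 6.84, 6.90, 6.79 and 6.80 in pseudopregnant replicates 1 to 4. The lowest pregnant array therefore lay above the highest pseudopregnant array, and pregnant replicate 2 was the highest of all. The means were 7.21 ± 0.21 and 6.83 ± 0.047 (SD, n = 4 each), a log2 difference of 0.38 ± 0.094 (SE) or 1.30-fold, with a 95% interval of 0.17 to 0.58 and a limma adjusted p of 0.064. A larger difference in either direction was found for 3.97% of the probe sets tested. Without pregnant replicate 2 the log2 difference of Odc1 was 0.29.

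The dimmer Odc1 probe set gave log2 intensities of 7.02, 7.35, 7.01 and 7.03 in the pregnant replicates and 6.59, 6.94, 6.76 and 6.82 in the pseudopregnant replicates. Its groups were separate as well, again with pregnant replicate 2 on top, but its pseudopregnant values were more scattered (SD 0.15, against 0.047 on the brighter one). The log2 difference was 0.32 ± 0.096 (SE), or 1.25-fold, with a limma adjusted p of 0.091. The mouse genome holds processed copies of Odc1, and the deposited values do not show whether either probe set also reads them. Which of the probe sets lies at the Odc1 gene itself was not examined. The difference without pregnant replicate 2 and the likeness to other genes, given here for Odc1, rest on the brighter probe set alone.

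Srm, which converts putrescine to spermidine (probe set 10510391), had log2 intensities of 9.49, 9.70, 9.71 and 9.48 in pregnant replicates 1 to 4 and of 9.30, 9.39, 9.24 and 9.22 in pseudopregnant replicates 1 to 4. All 4 pregnant values lay above all 4 pseudopregnant values, with pregnant replicates 2 and 3 the highest. The means were 9.60 ± 0.13 and 9.28 ± 0.077 (SD, n = 4 each), a log2 difference of 0.31 ± 0.072 (SE) or 1.24-fold, with a 95% interval of 0.15 to 0.47 and a limma adjusted p of 0.057. Without pregnant replicate 2 the difference of Srm was 0.28. Srm had the smallest p of the members, and 2.71% of all probe sets had a smaller one. It passed the threshold with the stricter intensity filter (adjusted p = 0.047), with 16 added to the intensities (0.048) and with an intensity trend in the variance (0.044), within a range of 0.044 to 0.12 over 18 alternatives.

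Among the regulators, the antizyme inhibitor gene Azin1 (probe set 10428310) had log2 intensities of 7.61, 7.34, 7.75 and 7.55 in the pregnant replicates and of 7.40, 7.39, 7.43 and 7.22 in the pseudopregnant replicates. Pregnant replicates 1, 3 and 4 lay above every pseudopregnant array, and pregnant replicate 2 lay within the pseudopregnant range. The log2 difference was 0.20 ± 0.088 (SE), with a 95% interval of 0.0084 to 0.40 and a limma adjusted p of 0.19. Without pregnant replicate 2, the difference of Azin1 was 0.28.

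Oaz2, an antizyme that shares the inhibition of ornithine decarboxylase with Oaz1 (probe set 10586441), ran the other way. Its log2 intensities were 6.04, 5.58, 5.99 and 6.04 in the pregnant replicates and 6.17, 6.20, 6.17 and 6.13 in the pseudopregnant replicates. The groups did not overlap, and the pseudopregnant arrays were closely spaced (SD 0.027) while pregnant replicate 2 lay far below the rest of its group. The log2 difference was -0.25 ± 0.098 (SE), with a 95% interval of -0.47 to -0.04 and a limma adjusted p of 0.16, and it was -0.14 without pregnant replicate 2.

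Among the genes of breakdown, Smox encodes the oxidase that turns spermine back into spermidine (probe set 10476301). Its log2 intensities were 7.51, 7.48, 7.90 and 7.68 in the pregnant replicates and 8.25, 8.04, 7.97 and 7.85 in the pseudopregnant replicates. The groups overlapped through a single pair of arrays, since pregnant replicate 3 lay just above pseudopregnant replicate 4. The means were 7.64 ± 0.19 and 8.03 ± 0.17 (SD, n = 4 each), a log2 difference of -0.38 ± 0.11 (SE), or a pregnant to pseudopregnant ratio of 0.766, with a 95% interval of -0.63 to -0.14 and a limma adjusted p of 0.081. This was the member with the largest difference among those tested, in absolute size, and 3.78% of all probe sets differed by more. Over 18 alternatives the limma adjusted p of Smox lay between 0.056 and 0.18, and without pregnant replicate 2 its difference was -0.33.

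Sat1, the acetyltransferase that tags spermidine and spermine for export or oxidation (probe set 10607467), showed nearly equal values in the pregnant uteri: 8.12, 8.18, 8.09 and 8.09. The pseudopregnant uteri formed a low pair, 7.70 and 7.52 in replicates 1 and 2, and a pair at the pregnant level, 8.13 and 8.17 in replicates 3 and 4. The SDs were accordingly 0.042 in the pregnant and 0.32 in the pseudopregnant group. The log2 difference was 0.24 ± 0.13 (SE), with a 95% interval of -0.06 to 0.54 and a limma adjusted p of 0.30. It was 0.22 without pregnant replicate 2, 0.12 without pseudopregnant replicate 2 and 0.34 without pseudopregnant replicate 4, and no label separates these uteri.

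Aoc1, the secreted diamine oxidase that degrades putrescine and histamine (probe set 10538163), was above the 40th percentile of its array on 2 of 8 arrays only and was therefore not in the fit. Its log2 intensities were 5.05, 7.68, 6.03 and 4.81 in pregnant replicates 1 to 4 and 5.03, 4.66, 4.78 and 5.18 in the pseudopregnant replicates. On the linear scale pregnant replicates 2 and 3 reached 204 and 65.1, and the other 6 uteri lay between 25.2 and 36.3. The means were 5.89 ± 1.30 and 4.91 ± 0.24 (SD, n = 4 each), a difference of 0.98 that did not pass a two-sided exact permutation test over the 70 arrangements of the arrays (p = 0.17, where 0.029 is the smallest possible). Without pregnant replicate 2 the difference of Aoc1 was 0.38, and without any other single array it was 0.89 to 1.34. Without the filter, limma gave Aoc1 an adjusted p of 0.35. Since most of its values lay near the bottom of the scale, the size of this difference is not exact.

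Over the 7 measured members, pregnant replicate 2 was the highest of its group for Odc1, Sat1 and Aoc1 and the lowest for Smox, Azin1 and Oaz2, so it was at an edge of its group for 6 of 7 genes. Pseudopregnant replicate 4 was also at an edge for 6 of 7, and the other arrays for 1 to 5 of 7. The 6 tested members kept the sign of their difference when any single array was left out. For Odc1, Srm and Oaz2, whose groups did not overlap, no other outcome was possible.

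**Figure D2:**
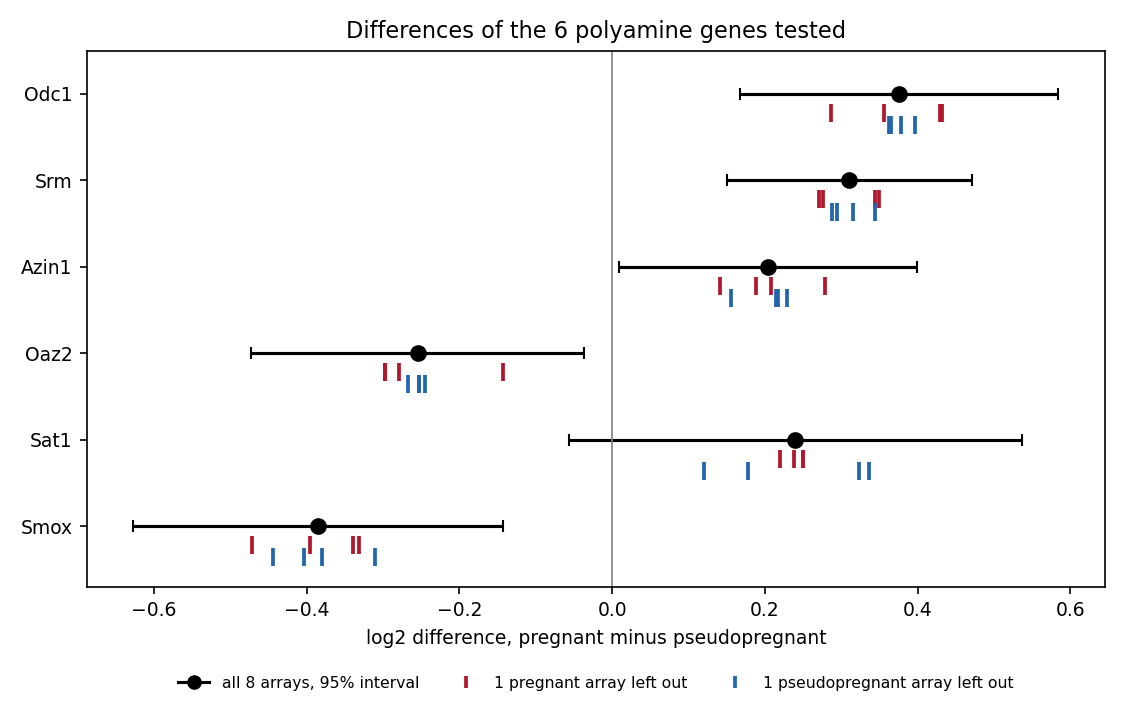
Log2 difference, pregnant minus pseudopregnant (horizontal axis), of the 6 polyamine genes tested: black points and bars give the limma estimate with its 95% interval over 8 arrays, and coloured ticks give the estimate with 1 array left out (red, a pregnant array; blue, a pseudopregnant array). Odc1 spans 0.29 to 0.43 over the ticks, Oaz2 moves from -0.25 to -0.14 without pregnant replicate 2, and the interval of Sat1 includes 0.

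The genes that supply, move or act with polyamines were followed in 7 lists with 57 different genes that passed the filter. Of these, 3 rose in the pregnant group and 0 fell, where 1.41% of all probe sets tested rose and 0.412% fell. All 3 stood in the list of known targets of the transcription factor Myc, to which Odc1 is also commonly counted. Tfrc, the receptor that takes up transferrin-bound iron, had log2 intensities of 6.47, 7.08, 6.50 and 6.68 in the pregnant replicates and of 5.74, 6.11, 5.98 and 6.00 in the pseudopregnant replicates. The groups were apart, and Tfrc rose by 0.73 ± 0.13 (SE), or 1.65-fold (limma adjusted p = 0.033). The mitochondrial serine hydroxymethyltransferase Shmt2, which feeds the folate cycle, rose by 0.36 ± 0.068 (0.035), and the growth regulator Pa2g4 by 0.33 ± 0.068 (0.044). Of the 14 Myc targets, 12 had differences above 0, 11 had an unadjusted limma p under 0.05 and 9 had groups that did not overlap. Over all probe sets tested, 50.6% had differences above 0, 23.7% had such a p and 14.6% had groups that did not overlap. The median difference of the list was 0.25, against 0.0019 over all probe sets tested. The list was chosen with earlier results of these data known, so these values are a description and not a test. The count of 3 became 0, 1, 2 and 0 without pregnant replicates 1, 2, 3 and 4 and 0 without any single pseudopregnant replicate; it was also 0 without the intensity filter. With the replicate number as a block it was 2, with Pa2g4 no longer past the threshold (adjusted p = 0.060). Of 10 tested members of the Myc network, 0 passed the threshold and 0 had an unadjusted p under 0.05 (limma), and their median difference was -0.06. Mycl (-0.16, adjusted p = 0.25), the Myc antagonist Mxd1 (0.10, 0.30) and Mnt (-0.08, 0.38) had the smallest p of that list; without pseudopregnant replicate 1, Mxd1 differed by 0.06 and Mnt by -0.05. Myc, named here after its values were seen, differed by -0.06 ± 0.078 (SE, adjusted p = 0.65).

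In the list of arginine and ornithine metabolism, which supplies the substrate of ornithine decarboxylase, 0 of 6 tested genes passed (limma). At an unadjusted limma p under 0.05, 2 were higher and 2 lower, where 23.7% of all probe sets tested reached such a p. Aldh18a1, which begins the synthesis of proline and ornithine from glutamate, had values of 8.51 to 8.58 in the pregnant and 8.27 to 8.37 in the pseudopregnant group. These groups were apart by a small amount, a log2 difference of 0.20 ± 0.048 (SE, adjusted p = 0.058), and the gene passed the threshold under 4 of 18 alternatives, with adjusted p of 0.046 to 0.12 over all of them. Gatm, which uses arginine to make the creatine precursor, differed by 0.55 ± 0.20 (0.14) and by 0.33 without pregnant replicate 2, which lay at 9.01 against 7.99 to 8.25 on the other pregnant arrays. The endothelial nitric oxide synthase Nos3 differed by -0.16 ± 0.055 (0.13). The arginase Arg1 lay below the intensity filter.

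Among genes of the methionine cycle and salvage, which provide S-adenosylmethionine and recycle the methylthioadenosine that Srm and Sms release, 0 of 10 tested genes passed (limma). At an unadjusted limma p under 0.05, reached by 23.7% of all probe sets tested, 2 were higher and 0 lower. These were both salvage enzymes: Adi1, with a difference of 0.43 ± 0.12 (SE, adjusted p = 0.074) and groups that just missed overlapping (8.26 to 8.71 against 7.80 to 8.25), and the phosphorylase Mtap, with 0.22 ± 0.073 (0.12). Ahcyl1 followed with 0.10 ± 0.065 (0.35), or 0.05 without pseudopregnant replicate 1. The median difference of this list was 0.06. Mat2a and Ahcy had no probe set with 1 gene symbol, and Mat1a and Gnmt lay below the intensity filter. The S-adenosylmethionine synthetase genes Mat1a and Mat2a were therefore not tested.

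Spermidine is also the donor for hypusine, the modified residue that activates the translation factor eIF5A. Eif5a had log2 intensities of 9.59, 9.997, 9.67 and 9.81 in the pregnant replicates and of 9.29, 9.63, 9.39 and 9.36 in the pseudopregnant replicates. The groups overlapped through pseudopregnant replicate 2, which lay above pregnant replicate 1. The difference was 0.35 ± 0.0996 (SE, limma adjusted p = 0.083). It passed the threshold under 1 of 18 alternatives, with the replicate number as a block (limma adjusted p = 0.049). These values rest on the brightest Eif5a probe set. With probe sets of a gene averaged, the difference of Eif5a was 0.25 (limma adjusted p = 0.11). Which probe set lies at the Eif5a gene itself was not examined. The modifying enzymes Dhps and Dohh differed by 0.08 ± 0.066 (0.49) and -0.13 ± 0.079 (0.35). Dhps was at 0.03 and 0.12 without pseudopregnant replicates 2 and 3, and Dohh at -0.06 without pregnant replicate 2. Of the 4 genes of that list 0 passed (limma). An unadjusted limma p under 0.05 was found for 1 of them and for 23.7% of all probe sets tested.

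Transport of polyamines and their precursors gave 0 of 8 tested genes past the threshold (limma). At an unadjusted limma p under 0.05, 1 was higher and 2 lower, against 23.7% of all probe sets tested in either direction. The P-type transporter Atp13a3 differed by 0.17 ± 0.072 (SE, adjusted p = 0.18), its lysosomal relative Atp13a2 by -0.15 ± 0.061 (0.18) and the exporter Slc47a1 by -0.12 ± 0.052 (0.19). The last list held further polyamine enzymes and regulators, of which 0 of 5 passed (limma). At an unadjusted limma p under 0.05, 0 were higher and 2 lower, against the same 23.7% of all probe sets. The agmatine hydrolase Agmat differed by -0.24 ± 0.085 (SE, adjusted p = 0.14), the amine oxidase Aoc3 by -0.18 ± 0.071 (0.17) and the second antizyme inhibitor Azin2 by -0.08 ± 0.076 (0.57), or by -0.12 and -0.0012 without pregnant replicates 1 and 2. Among the genes tested in these lists, only Tfrc, Shmt2 and Pa2g4 passed, none of them an enzyme or carrier of polyamines.

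**Figure D3:**
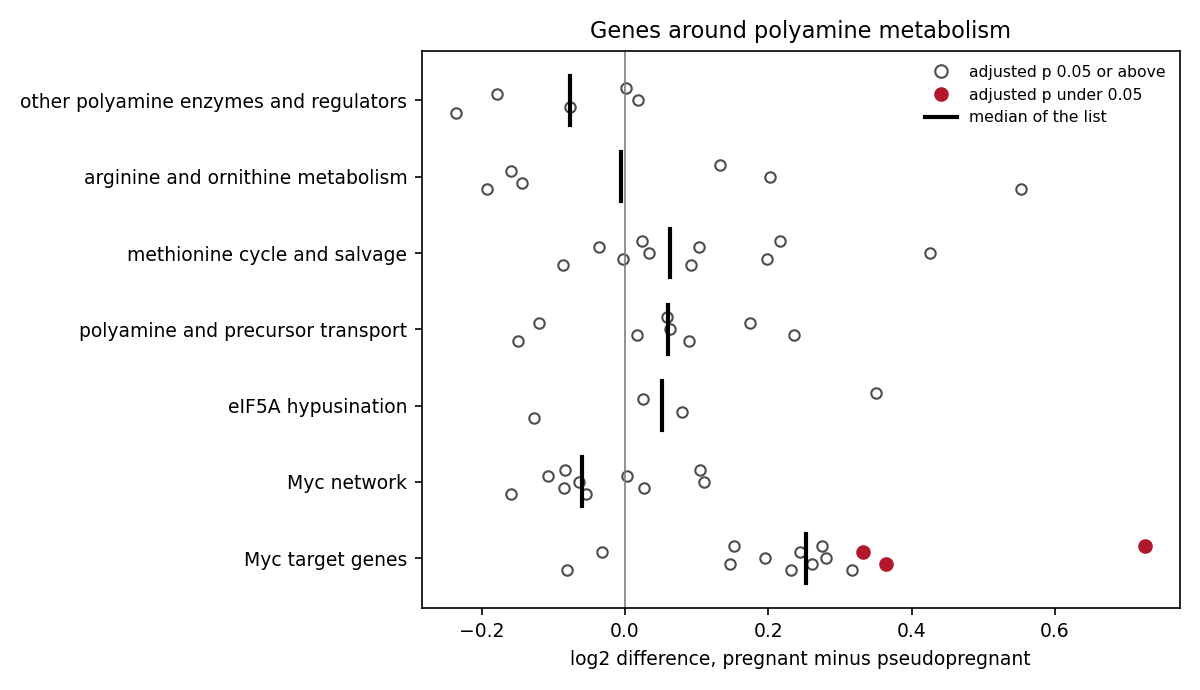
Log2 difference, pregnant minus pseudopregnant (horizontal axis), of each tested gene in the 7 lists around polyamine metabolism (rows); filled red points have a limma adjusted p under 0.05, and black bars mark each list's median. The 3 filled points, Tfrc, Shmt2 and Pa2g4, lie in the Myc target list, whose median is 0.25, and the other medians lie between -0.08 and 0.06.

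Markers of macrophages and lymphocytes, and 1 of proliferation, rose in the pregnant group. Of all probe sets tested, 1.41% rose and 50.6% had a difference above 0. Of 7 macrophage markers, 5 rose, all 7 had differences above 0, and the mean level of the list was 7.33 to 7.61 on the pregnant against 7.05 to 7.11 on the pseudopregnant arrays. The complement gene C1qb (0.56 ± 0.068, SE, limma adjusted p = 0.012) and the surface receptor Adgre1 (0.62 ± 0.099, 0.025) had the smallest p. Of 6 markers of natural killer and cytotoxic lymphocytes, 4 rose, and the list's mean level was 6.44 to 7.21 against 5.53 to 6.17; the granzyme gene Gzmb differed by 1.51 ± 0.27 (SE, adjusted p = 0.031) and the receptor gene Il2rb by 1.10 ± 0.20 (0.034). Of 6 proliferation markers, 1 rose, Pcna (0.55 ± 0.094, SE, adjusted p = 0.028), Mcm5 differed by 0.43 (0.055), and the list's mean level was 8.05 to 8.60 against 7.72 to 7.99. On all 3 lists pregnant replicate 2 had the highest mean level, 7.61, 7.21 and 8.60. Every marker of these lists that the array measured passed the filter, but the lymphocyte receptor gene Klrd1 passed through the pregnant arrays alone, being above its arrays' 40th percentile on 4 pregnant and 0 pseudopregnant arrays. Klrd1 was not among the 4 that rose, and it enters the list's mean level. The part of these cells in the differences of Odc1, Srm and the other members was not tested.

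Those counts depended on single arrays. Without pregnant replicates 1, 2, 3 and 4, the macrophage count was 3, 3, 3 and 2 of 7 and the lymphocyte count 2, 2, 1 and 0 of 6. Leaving out pseudopregnant replicates 1, 2, 3 and 4 in turn gave 1, 1, 1 and 2 macrophage markers and 0, 0, 0 and 6 lymphocyte markers, the 6 including Klrd1. The proliferation count was 0 except without pregnant replicate 3 (3) and pseudopregnant replicate 4 (1). With the replicate number as a block the counts were 2, 1 and 0, with Il2rb (adjusted p = 0.060) and Pcna (0.054) no longer past the limma threshold, and without the intensity filter they were 1, 0 and 0. The other tissue markers did not pass. Of all probe sets tested, 23.7% had an unadjusted limma p under 0.05 and 50.6% had a difference above 0. Of 6 epithelial markers 0 passed (limma; 1 lower at an unadjusted p under 0.05), with Krt19 at -0.46 (adjusted p = 0.15) and Krt8 at -0.31 (0.26); 5 of the 6 had differences below 0, and the list's mean level was 7.38 to 7.72 on pregnant against 7.67 to 7.9998 on pseudopregnant arrays. Without pseudopregnant replicate 1 Krt19 was at -0.28, and without pregnant replicate 2 Krt8 was at -0.16. Of 6 endothelial markers 0 passed (limma; 2 lower at an unadjusted p under 0.05), with Vwf at -0.30 (adjusted p = 0.14) and Cdh5 at -0.13 (0.19). All 6 endothelial markers had differences below 0, and the list's mean level was 8.35 to 8.580 on pregnant and 8.585 to 8.73 on pseudopregnant arrays, without overlap. Of 6 smooth muscle markers 0 passed (1 lower at an unadjusted p under 0.05), with Myh11 at -0.22 (0.070) and Des at 0.25 (0.24), and of 6 stromal markers 0 passed, also at an unadjusted p under 0.05, with Col3a1 at 0.13 (0.28) and Dcn at 0.07 (0.42). Des was at 0.13 without pregnant replicate 2 and Col3a1 at 0.07 without pregnant replicate 4. The mean level was 10.50 to 10.80 against 10.37 to 10.69 for smooth muscle and 10.04 to 10.16 against 9.98 to 10.10 for stroma. The part of these cells was not tested either.

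The genes whose log2 intensities ran most like those of Odc1 over the 8 arrays, among 13039 genes tested, were the iron carrier gene Trf (Pearson r = 0.994), Pigu, which takes part in attaching GPI anchors (0.982), and the glycolytic enzyme gene Tpi1 (0.980). Those most like Srm were the transcription factor gene Elf4 (0.977), the nucleolar protein gene Urb1 (0.971) and Polr3f, a subunit of RNA polymerase III (0.970). These genes were selected for their likeness, which includes the difference between the groups, so the values are a description. Their own differences lay between 0.16 for Pigu (limma adjusted p = 0.15) and 0.43 for Trf (0.075). Of these 6 genes, 0 passed the limma threshold, against 1.82% of all probe sets tested. All 6 had an unadjusted limma p under 0.05, against 23.7% of all probe sets tested. Selection for likeness to Odc1 and Srm, whose groups did not overlap, favours a small p.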

How the data were processed

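The authors deposited probe set intensities on a linear scale for 8 arrays, made with RMA per the submitters' processing notes, which name no version; its settings and the build behind the annotation were not stated there. RMA aligns array distributions and compresses small differences near background. Here log2 was taken. Of 35556 probe sets, the 6612 lowest identifiers, a block without listed genes, were treated as array controls, by inference, and dropped. Genes were named from the platform's table, only for probe sets with 1 symbol (21789; 1621 had several and 5534 none). Tested were the 17494 probe sets that exceeded their array's 40th percentile on at least 4 of 8 arrays. Each gene was represented by its probe set with the highest mean over 8 arrays. Groups were compared with limma 3.58.1 (lmFit, eBayes, a single group term, two-sided) in R 4.3.3, with Benjamini-Hochberg adjustment over all tested probe sets. "Rose" and "fell" mean an adjusted p under 0.05. Intervals are at 95%, unadjusted. The code was tested on simulated data. Figures used matplotlib 3.10.9 in Python 3.11.15.

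The members and lists were chosen with earlier results of these data known. Named were all members, each pathway list's genes past the threshold or else its 3 smallest p, the 2 smallest p of each marker list, and the 3 genes most correlated with Odc1 and with the member of smallest p other than Odc1, Srm. Alternatives were other filters, an added constant, other normalizations, array weights, a variance trend, averaged probe sets, a replicate block and leaving out each array. Replicate numbers were not used as pairs in the main fit. Deviations of same-numbered arrays correlated at 0.24, 0.016, -0.10 and 0.044. Without such values for differently numbered arrays, these do not settle whether the numbers pair the samples. The titles call the samples biological replicates; no batch is given in the labels.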

Additional observations from a re-analysis of the deposited data

Results flagged for a closer look

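In 8 of the 102 groups of 4 arrays examined, over 51 genes named here, the most distant array lay beyond Dixon's 95% critical value; chance gives about 1 in 20 groups. Among the polyamine genes this held for Oaz2 in pregnant replicate 2, at 5.58 against 5.99 to 6.04 on the other pregnant arrays. Aldh18a1 stood out in pregnant replicate 1 (8.58 against 8.51 to 8.53), Pcna in pregnant replicate 3 (9.40 against 9.73 to 9.78) and Inha in pregnant replicate 4 (6.40 against 6.16 to 6.17). In pseudopregnant replicate 1 it was Mnt (6.97 against 6.82 to 6.85), Des (9.86 against 10.14 to 10.18) and Foxl2 (6.11 against 6.02 to 6.03), and in pseudopregnant replicate 4 Gzmb (6.51 against 5.83 to 5.87).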

How the results depend on the processing

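Over the alternatives, 0 of 50 named genes changed the sign of their difference, and 824 of 891 single-gene comparisons kept both sign and side of the threshold (51 no longer passed it and 16 newly passed). Of the comparisons, 17 belong to Eomes, which passed the intensity filter through the pregnant arrays alone, and 1 of these newly passed. Leaving out an array could not change the sign for genes whose groups did not overlap. The count of members past the threshold was 1 instead of 0 with the stricter filter, with 16 added before log2 and with the intensity trend, in each case Srm, and 0 under the others. Probe sets past the threshold numbered 54 without a filter, 174 with the replicate block and 568 with the intensity trend, against 319. Pathway genes past it numbered 0 without a filter, 6 with the stricter filter, 5 with the added constant, 5 with array weights and 6 with the intensity trend, against 3. Markers past it numbered 1 without a filter and 3 with the replicate block, against 10. Leaving out single arrays gave 0 members, 40 to 235 probe sets, 0 to 2 pathway genes and 1 to 9 markers; probe sets numbered 84, 101, 207 and 86 without pregnant replicates 1 to 4 and 40, 70, 40 and 235 without pseudopregnant replicates 1 to 4. With the replicate block, 0 members passed and Odc1 had an adjusted p of 0.066. Leaving out an array also leaves fewer arrays; other causes of these shifts were not tested. Signals near background limit Aoc1 and the sizes of dim genes.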

Other observations

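Lists for tissues that could be carried along with the uterus were also read. Of 7 blastocyst markers on the array, 1 passed the intensity filter, Eomes, which natural killer cells also express, at 5.41 to 6.28 on pregnant and 4.79 to 5.27 on pseudopregnant arrays. It passed through the pregnant arrays alone, being above its arrays' 40th percentile on 4 pregnant and 0 pseudopregnant arrays. No fold or test is therefore given here, though Eomes enters the counts over the alternatives. Cdx2, Elf5, Pou5f1, Nanog, Sox2 and Tfap2c lay below the intensity filter. The mean level of the list was 4.52 to 4.66 on pregnant and 4.44 to 4.72 on pseudopregnant arrays. Of 6 ovary and oviduct markers, 2 passed the filter, Inha (-0.79 ± 0.24, SE, limma adjusted p = 0.097) and Foxl2 (-0.24 ± 0.056, 0.057), of which Foxl2 is also expressed in the uterus, and the list's mean level was 4.995 to 5.10 on pregnant against 5.19 to 5.64 on pseudopregnant arrays. Inha was uneven in the pseudopregnant group, at 7.28, 6.22, 6.94 and 7.62 in replicates 1 to 4. The pregnant arrays lay at 6.16 to 6.40. Leaving out single arrays gave differences of -1.05 to -0.59 for Inha (limma adjusted p 0.045 to 0.22), the largest without pseudopregnant replicate 2. Ovgp1, the oviduct marker of the list, had no probe set with 1 gene symbol and was not read.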
